A study of Mus musculus with 9 samples.

Results

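The genes examined were the cytochrome P450s of families 1 to 3, which oxidise drugs and other foreign compounds, in the livers of mice that had received antibiotics early in life. All genes on the array whose symbol begins with Cyp1, Cyp2 or Cyp3 and a lower-case letter were taken, which gave 43 of the 18193 genes measured. Each gene was read from the probe set (a group of short array probes for 1 transcript) with the highest mean signal over all arrays. Of these 43 genes, 36 had a single probe set, 5 had 2 and 2 had 3.

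All mice were female C57BL/6J, and all ate a high-fat chow after the last antibiotic course. Control mice drank water without antibiotic. Amoxicillin, a beta-lactam, was given in drinking water at 0.167 mg/mL, intended to provide 25 mg/kg per day, and tylosin, a macrolide, was given at 0.333 mg/mL, intended to provide 50 mg/kg per day. Both antibiotics were given in 3 courses, on days 10 to 15, days 28 to 31 and days 37 to 40 of life. Livers were taken at 22 weeks of age per the design text and at 24 weeks per the sample labels. Each group held 3 livers with 1 array each. Littermates stayed together in 1 treatment group and 1 cage, and the litter of each array is not given in the sources used here, so litter, cage and treatment cannot be told apart. The comparisons asked whether liver transcripts still differed long after the antibiotics had stopped.

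Cytochrome P450s are haem enzymes of the endoplasmic reticulum that insert an oxygen atom into their substrates, with electrons from NADPH-cytochrome P450 reductase and, for some reactions, from cytochrome b5. Liver is their main site, and many of them are most abundant in the hepatocytes around the central vein. Their genes are switched on by receptors that sense foreign compounds: the aryl hydrocarbon receptor (AHR) for family 1, and the constitutive androstane receptor (CAR) and pregnane X receptor (PXR) for many genes of subfamilies 2B, 2C and 3A. Several mouse members differ between female and male liver through the pattern of growth hormone release.

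Values are log2 expression, so a difference of 1 is a 2-fold change in signal. Probe sets differ in brightness for the same amount of RNA, so signals were compared between arrays and not between genes. Markers of hepatocytes averaged between 13.73 and 13.92 in every array. The arrays amoxicillin replicate 1 and tylosin replicate 2 stood apart through transcripts of intestinal mucosa, with a list mean of 6.06 and 5.91 against 4.22 to 4.66 in the other arrays, and of smooth muscle, with 5.94 and 6.21 against 4.20 to 4.58. Tylosin replicate 3 stood apart in a split Kupffer cell and macrophage list. Of its 7 genes, 5 were highest of all arrays there, among them Timd4, Marco (10.95 against 5.81 to 8.67) and Cd5l (11.95 against 10.43 to 11.14). The others, Clec4f (7.5 against 9.20 to 9.66) and Vsig4 (9.40 against 9.99 to 10.52), were the lowest of all arrays. In bulk liver RNA, fewer cells of a type and less RNA per cell cannot be told apart. Nothing in the labels says more of the replicates than a number, so p-values measure the spread between these samples only.

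Of the 43 members, 30 exceeded a log2 level of 6 in at least 3 arrays. The other 13 had means from 2.74 to 4.87, where the array medians were 3.96 to 4.06: Cyp1a1, Cyp1b1, Cyp2b19, Cyp2c55, Cyp2c65, Cyp2d12, Cyp2d34, Cyp2d40, Cyp2j9, Cyp2j11, Cyp2j13, Cyp2s1 and Cyp2u1. A further 2 probe sets each matched a pair of nearly identical members and were left out of all counts. That for Cyp3a41a and Cyp3a41b gave 12.80, 12.89 and 12.95 in control, 12.85, 13.11 and 13.00 in amoxicillin and 12.83, 12.78 and 12.69 in tylosin arrays. That for Cyp2a4 and Cyp2a5, whose enzymes hydroxylate testosterone and coumarin respectively, gave 12.76, 12.06 and 12.54 in control, 12.50, 12.06 and 12.53 in amoxicillin and 12.78, 12.36 and 12.46 in tylosin arrays. Both probe sets overlapped between control and each antibiotic.

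Mouse P450 genes lie in clusters of close copies, and the stretch just upstream of their start sites shows how alike the neighbours are. RefSeq (GRCm38.p6) gave a promoter for 35 of the 43 members. The 250 bases before the start are shown 5′ to 3′ on the gene's strand for 2 pairs of neighbours that are described together below, and for Cyp2d10, whose tylosin arrays lay below all other arrays. Capitals mark matches, on either strand, to AGGTCA or AGTTCA (bound by nuclear receptors such as PXR and CAR), CAAAGT (the core bound by HNF4), GTTAAT (bound by HNF1) or TATAAA (the TATA box). The positions are Cyp2c37 at chr19:39992174-39992423 (plus strand), Cyp2c50 at chr19:40089429-40089678 (plus strand), Cyp2d10 at chr15:82407195-82407444 (minus strand), Cyp3a16 at chr5:145469724-145469973 (minus strand) and Cyp3a44 at chr5:145805875-145806124 (minus strand).
Cyp2c37: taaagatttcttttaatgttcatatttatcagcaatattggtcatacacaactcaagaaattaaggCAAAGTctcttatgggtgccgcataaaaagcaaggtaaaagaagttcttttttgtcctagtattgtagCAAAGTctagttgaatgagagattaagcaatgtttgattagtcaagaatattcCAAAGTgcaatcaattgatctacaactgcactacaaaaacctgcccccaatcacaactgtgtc
Cyp2c50: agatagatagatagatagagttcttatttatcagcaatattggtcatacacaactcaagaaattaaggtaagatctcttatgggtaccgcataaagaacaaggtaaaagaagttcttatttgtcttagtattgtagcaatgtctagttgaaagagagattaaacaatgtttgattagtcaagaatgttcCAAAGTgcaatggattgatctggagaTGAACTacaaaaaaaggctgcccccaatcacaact
Cyp2d10: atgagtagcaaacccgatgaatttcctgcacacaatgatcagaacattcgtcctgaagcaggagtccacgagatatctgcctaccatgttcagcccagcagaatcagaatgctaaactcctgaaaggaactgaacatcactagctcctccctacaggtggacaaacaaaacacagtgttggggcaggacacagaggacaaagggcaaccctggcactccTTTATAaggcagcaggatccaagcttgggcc
Cyp3a16: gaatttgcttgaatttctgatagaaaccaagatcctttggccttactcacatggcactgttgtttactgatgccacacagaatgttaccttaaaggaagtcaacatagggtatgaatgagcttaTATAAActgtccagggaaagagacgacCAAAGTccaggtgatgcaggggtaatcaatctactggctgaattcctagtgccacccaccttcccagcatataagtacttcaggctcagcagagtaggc
Cyp3a44: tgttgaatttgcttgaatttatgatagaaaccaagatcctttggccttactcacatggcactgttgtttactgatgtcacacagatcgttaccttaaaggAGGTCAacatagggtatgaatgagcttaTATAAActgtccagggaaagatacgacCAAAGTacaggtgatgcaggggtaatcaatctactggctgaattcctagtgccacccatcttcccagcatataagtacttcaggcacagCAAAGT

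The Cyp3a16 and Cyp3a44 stretches were identical at 236 of 246 aligned bases (95.9%), and both held TATAAA followed by CAAAGT, while AGGTCA was found in that of Cyp3a44. The Cyp2c37 and Cyp2c50 stretches were identical at 215 of 245 aligned bases (87.8%). CAAAGT was present 3 times in the first and once in the second. Over the 38 promoter entries of the members, CAAAGT was found in 18 (47.4%), against 12.6% of all 32851 promoters of that length, and TATAAA in 17 (44.7%), against 12.4%. AGGTCA was found in 12 (31.6%), against 14%. AGTTCA was present in 3 (7.89%), against 11.8%, and GTTAAT in 2 (5.26%), against 6.43%. The motifs were picked with the sequences in view, and a match in 6 letters is a description of the sequence and not a binding site.

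No member of families 1 to 3 differed between groups by the study's rule, which asks for a log2 fold change of more than 0.5 either way with P under 0.01 before adjustment. In amoxicillin against control livers, limma called 0 of 43 members higher and 0 lower, where 0.835% of all genes were called higher and 0.445% lower. In tylosin livers the counts were also 0 higher and 0 lower, against 1.01% and 0.44% of all genes. Between tylosin and amoxicillin they were 0 and 0, against 0.0715% and 0.0385%. No probe set of any member, the dimmer ones included, was called in any comparison. After Benjamini-Hochberg adjustment over all 45037 probe sets, 0 members and 0% of all genes were under 0.05 in any comparison.

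At an unadjusted limma p under 0.05, the members, each read at its brightest probe set, appeared on the lower side only. In amoxicillin livers 0 were higher and 1 was lower (2.33%), against 7.14% higher and 8.34% lower of all genes. The 1 was Cyp2d26. In tylosin livers 0 were higher and 7 lower (16.3%), against 8.29% and 8.3%: Cyp2b10, Cyp2c29, Cyp2c54, Cyp2d10, Cyp2d26, Cyp2d34 and Cyp3a44. Tylosin against amoxicillin livers gave 0 higher and 4 lower (9.3%), against 1.78% and 1.36%: Cyp2b10, Cyp2g1, Cyp3a16 and Cyp3a44. The comparisons with control share the control arrays, and both comparisons of tylosin share the tylosin arrays.

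**Figure D1:**
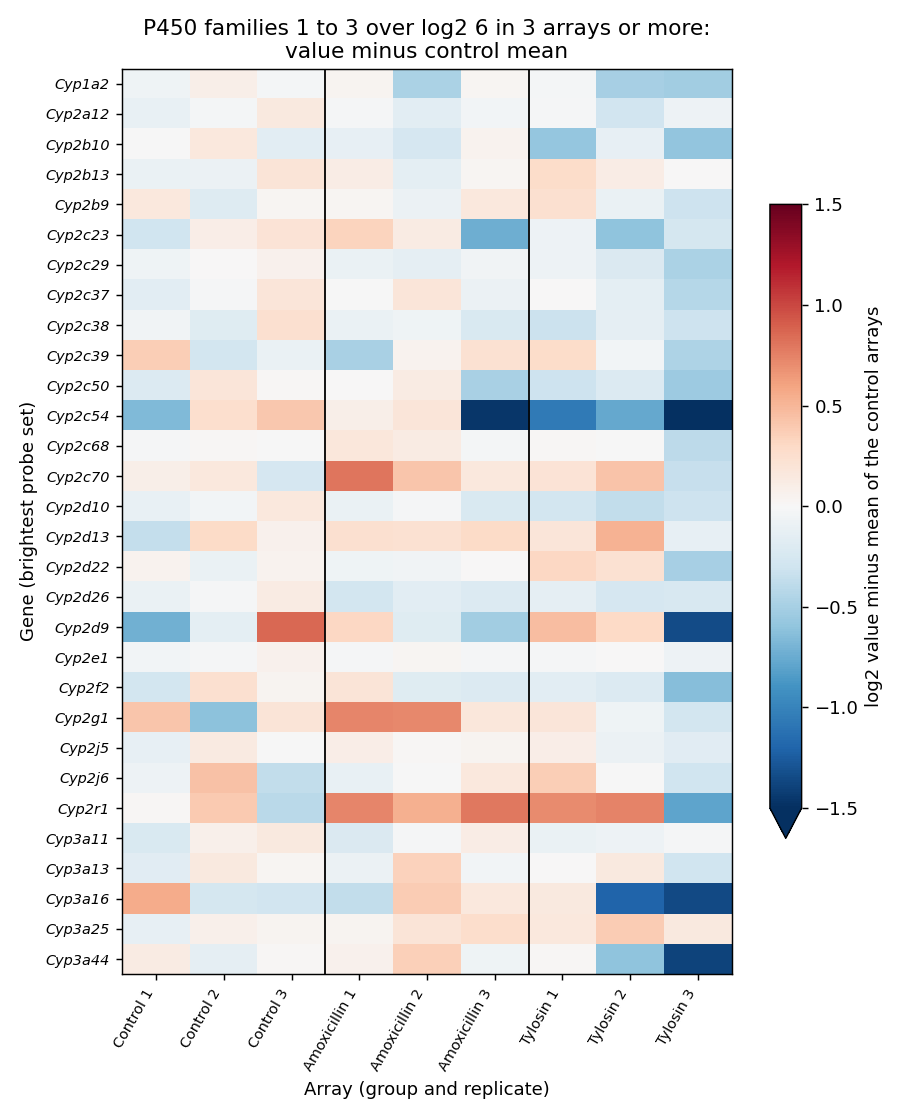
Heat map of the 30 members that exceeded a log2 level of 6 (rows, grouped by subfamily) in the 9 arrays (columns), coloured by the log2 value minus the gene's mean over the control arrays. Blue is lower and red higher, the scale ends at 1.5 in each direction, and tylosin replicate 3 is the lowest tylosin array for 24 of the 30 rows.

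The intervals bound how large a difference these arrays leave room for. For amoxicillin, the 95% interval of the log2 fold change lay within 0.5 of 0 for 30 of 43 members (69.8%, against 70.3% of all genes) and within 1 for 39. The exceptions at 1 were Cyp2c54, Cyp2d9, Cyp2g1 and Cyp2r1. For tylosin, the interval lay within 0.5 for 24 members (55.8%, against 69.9%) and within 1 for 38. Here the exceptions at 1 were Cyp2c54, Cyp2d9, Cyp2r1, Cyp3a16 and Cyp3a44. Between tylosin and amoxicillin, 27 members lay within 0.5 (62.8%, against 84.4% of all genes) and 37 within 1 (86%, against 98.2%).

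The members' fold changes ran from -0.40 to 0.69 in amoxicillin livers, with a median of -0.04 and 25 of 43 below 0 (58.1%, against 55.3% of all genes). In tylosin livers they ran from -1.25 to 0.43, with a median of -0.11 and 32 below 0 (74.4%, against 53.3%). Between tylosin and amoxicillin the differences ran from -0.86 to 0.29, with 31 below 0 (72.1%, against 46.6%). Of the 29 genes of the other P450 families, 79.3% were below 0 with tylosin (median -0.09) and 65.5% with amoxicillin (median -0.06). Between tylosin and amoxicillin, 58.6% of them were below 0. Among the 30 members over the level, the tylosin median was -0.13, with 23 below 0 (76.7%), and the median of all 7732 genes over that level was 0.08, with 34% below 0. The amoxicillin median of the same members was -0.02, with 17 below 0 (56.7%, against 35.7%).

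Relative to control, the lower tylosin values lay mostly in 1 array. Tylosin replicate 3 was the lowest tylosin array for 24 of the 30 members (80%), against 47.3% of genes over the level. The median of the 30 members relative to the control mean was 0.01 in tylosin replicate 1, -0.09 in replicate 2 and -0.33 in replicate 3, against -0.09 to 0.05 in the control arrays and -0.00 to 0.03 in the amoxicillin arrays. Without tylosin replicate 3, the tylosin median of the 30 members was -0.04, with 16 below 0 and 14 above. All genes over the level had a median of 0.10 at that setting, so the members still lay lower than all genes. Tylosin replicate 3 was also the array with high Marco and low Clec4f. Hmox1, which degrades haem, read 8.50 there against 6.31 to 6.87 in the other arrays. The part of these in the lower P450 values was not tested. Its hepatocyte list lay within the range of the other arrays. Alb of that list gave the highest signal of every array, 14.64 to 14.71, where arrays respond less to further RNA, which limits what the list can show.

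**Figure D2:**
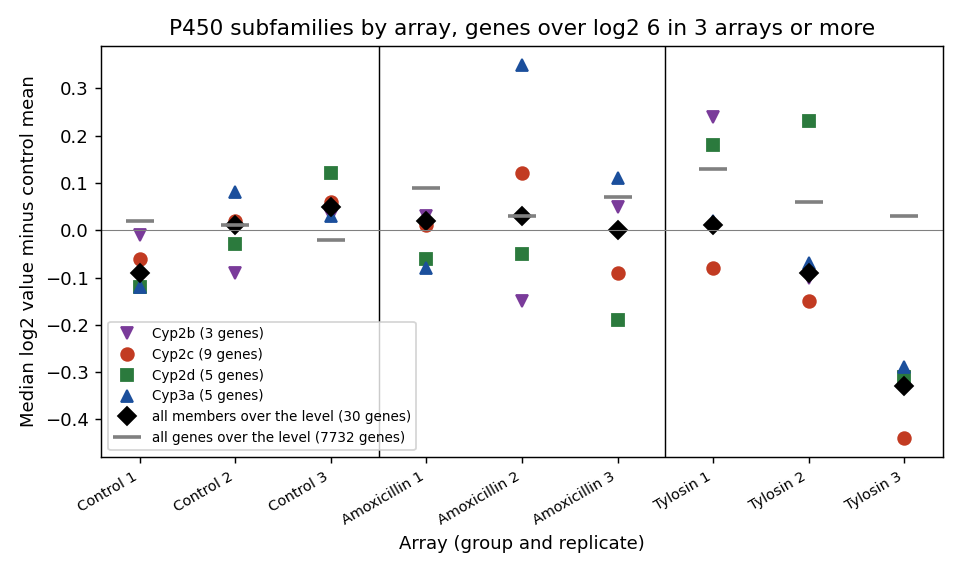
Median over members of a subfamily of the log2 value minus the gene's control mean (y axis), for each of the 9 arrays (x axis), with the median of all genes over the level beside them. Tylosin replicate 3 lay at -0.44 for Cyp2c, -0.31 for Cyp2b and Cyp2d and -0.29 for Cyp3a, while all genes lay at 0.03.

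Family 1 holds the enzymes that oxidise planar aromatic compounds, and Cyp1a2, the main hepatic form, also clears caffeine. Cyp1a2 read 11.28, 11.43 and 11.31 in control, 11.38, 10.87 and 11.37 in amoxicillin and 11.31, 10.84 and 10.82 in tylosin arrays. A pair of tylosin arrays and 1 amoxicillin array lay below the controls, and the others lay among them. Its log2 fold change was -0.14 (SE 0.16, limma adjusted p = 0.72) with amoxicillin and -0.35 (95% interval -0.71 to 0.02, limma adjusted p = 0.35) with tylosin. Cyp1a1, the form most strongly induced by AHR ligands, stayed between 3.51 and 3.85 in all arrays, and the brightest probe set of Cyp1b1, the largely extrahepatic form, between 4.46 and 5.06.

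Outside the P450s, the AHR target Nqo1, a quinone reductase, was called higher with both antibiotics, as were 0.835% (amoxicillin) and 1.01% (tylosin) of all genes. Nqo1 read 5.31, 5.02 and 5.29 in control, 5.76, 5.73 and 6.12 in amoxicillin and 5.95, 6.05 and 5.85 in tylosin arrays. It rose by 0.66 with amoxicillin (limma adjusted p = 0.19) and by 0.74 with tylosin (adjusted p = 0.18), and both antibiotic groups lay wholly above control. Nqo1 did not exceed a log2 level of 6 in at least 3 arrays. Of the 4 AHR targets outside the P450s, the others (Tiparp, Ahrr and Aldh3a1) were not called, and they did not move in 1 direction. With tylosin, Tiparp (0.27) and Ahrr (0.45) had all arrays above control, and Aldh3a1 (-0.30) had all arrays below. Ahrr and Aldh3a1 were under an unadjusted limma p of 0.05 there, but both read below the median of every array. With amoxicillin the values were 0.01, 0.34 and -0.10, with overlapping groups.

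Subfamily 2B genes are the classic targets of CAR. Cyp2b10, the most inducible of them, read 6.46, 6.63 and 6.31 in control, 6.34, 6.22 and 6.52 in amoxicillin and 5.89, 6.34 and 5.88 in tylosin arrays on its brightest probe set. Tylosin replicates 1 and 3 lay below every control, and replicate 2 lay just above the lowest control. Its log2 fold change with tylosin was -0.44 (SE 0.14, limma adjusted p = 0.24), and the other 2 probe sets of Cyp2b10 gave -0.23 and -0.09. Without tylosin replicate 2, one of the arrays with intestinal transcripts, the first became -0.59 and was called. Cyp2b9, which is higher in female liver, ranged from 11.07 to 11.62 with overlapping groups. Cyp2b13, another female-biased gene, read 10.97, 10.98 and 11.26 in control, 11.18, 10.92 and 11.10 in amoxicillin and 11.34, 11.18 and 11.08 in tylosin arrays, also with overlapping groups and a tylosin log2 fold change of 0.13. Cyp2b19 ranged from 2.69 to 3.17, below the median of every array.

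Subfamily 2C is the largest set measured in liver, with 9 members over the level, and includes epoxygenases of arachidonic and linoleic acid. Its median log2 fold change with tylosin was -0.25, with 8 of 9 members below 0, against a median of 0.08 for all genes over the level. Without tylosin replicate 3 the median was -0.15, with 6 below, against 0.10 for all genes over the level. With amoxicillin the median was -0.09, with 6 below, against 0.06.

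Cyp2c54, an epoxygenase of arachidonic and linoleic acid, had the most negative value in both comparisons with control. It read 10.67, 11.59 and 11.74 in control, 11.42, 11.52 and 9.87 in amoxicillin and 10.27, 10.57 and 9.39 in tylosin arrays. All tylosin arrays lay below all control arrays, tylosin replicate 2 by little, and so did amoxicillin replicate 3. The log2 fold change was -1.25 with tylosin (SE 0.45, 95% interval -2.25 to -0.25, limma adjusted p = 0.26), a signal ratio of 0.42. Leaving out 1 array at a time, it lay between -1.58 without control replicate 1 and -0.91 without tylosin replicate 3. With amoxicillin it was -0.40 (95% interval -1.40 to 0.60, adjusted p = 0.70), and the sign turned to 0.14 without amoxicillin replicate 3.

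Cyp2c50, its neighbour on chromosome 19 and also an epoxygenase, read 12.67, 13.06 and 12.89 in control, 12.88, 13.00 and 12.39 in amoxicillin and 12.56, 12.67 and 12.33 in tylosin arrays. The tylosin arrays lay at or below the lowest control, and amoxicillin replicate 3 was again apart from the other two of its group. Its tylosin log2 fold change was -0.35 (SE 0.16, limma adjusted p = 0.35). Cyp2c37, whose promoter is shown beside that of Cyp2c50, read 12.22, 12.35 and 12.55 in control, 12.37, 12.55 and 12.28 in amoxicillin and 12.38, 12.23 and 11.94 in tylosin arrays, with overlapping groups and a tylosin log2 fold change of -0.19.

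Cyp2c29, a CAR-inducible form, read 12.50, 12.56 and 12.62 in control, 12.46, 12.43 and 12.51 in amoxicillin and 12.48, 12.34 and 12.09 in tylosin arrays. The tylosin arrays lay below all controls, by a log2 fold change of -0.25 (SE 0.11, limma adjusted p = 0.31), and the amoxicillin arrays gave -0.09. Cyp2c70, which makes the muricholic bile acids of rodents, was the 2C member with the most positive amoxicillin value. It read 11.98, 12.06 and 11.65 in control, 12.70, 12.31 and 12.06 in amoxicillin and 12.10, 12.33 and 11.55 in tylosin arrays. Amoxicillin replicates 1 and 2 were above all controls and replicate 3 equalled the highest control at 2 decimals, with a log2 fold change of 0.46 (95% interval -0.01 to 0.93, limma adjusted p = 0.35).

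The other 2C members over the level overlapped between control and each antibiotic. Cyp2c68 read 13.15, 13.19 and 13.16 in control, 13.34, 13.29 and 13.14 in amoxicillin and 13.18, 13.16 and 12.77 in tylosin arrays, with tylosin replicate 3 alone below the rest. Cyp2c38 read 10.31, 10.18 and 10.61 in control, 10.27, 10.30 and 10.14 in amoxicillin and 10.04, 10.23 and 10.06 in tylosin arrays. Its log2 fold change was -0.13 with amoxicillin and -0.26 with tylosin (95% interval -0.52 to 0.00). Cyp2c23, a renal and hepatic arachidonic acid epoxygenase, ranged from 10.70 to 11.76 and Cyp2c39 from 6.72 to 7.58. The gastrointestinal forms Cyp2c55 and Cyp2c65 lay between 4.0 and 4.57 and between 2.51 and 2.94, and both were highest in a control array. Within their own groups, both were highest in the arrays with intestinal transcripts, amoxicillin replicate 1 (4.50 and 2.79) and tylosin replicate 2 (4.30 and 2.92). These values lay within the control ranges, 4.18 to 4.57 and 2.51 to 2.94, so this order cannot be told from the spread between arrays. Cyp2s1, an epithelial form, read 3.45, 3.67 and 3.55 in control, 3.10, 3.49 and 3.15 in amoxicillin and 3.51, 3.91 and 3.19 in tylosin arrays, highest in tylosin replicate 2 and lowest in amoxicillin replicate 1, which both carried intestinal transcripts.

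**Figure D3:**
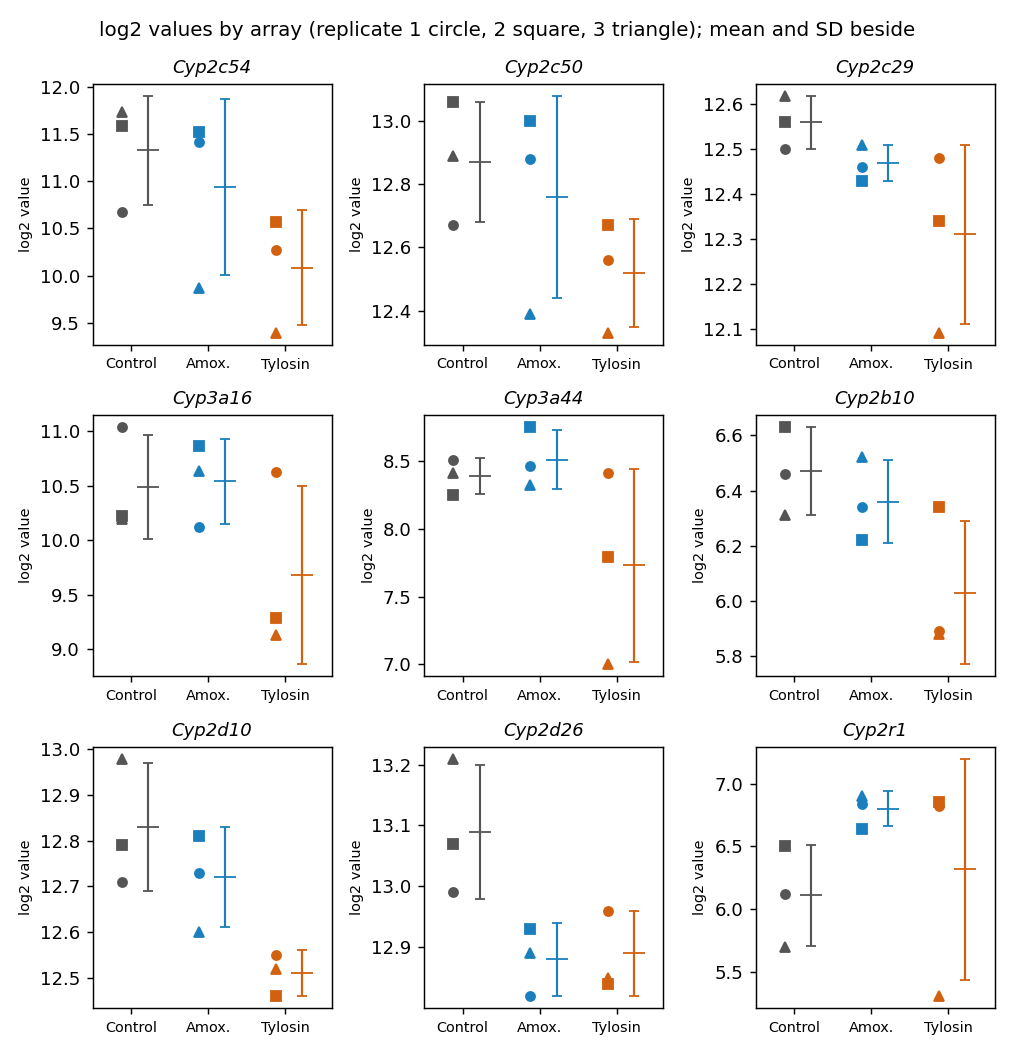
Log2 values of single members in every array, 1 panel a gene with its own y axis, as points for the 3 control, 3 amoxicillin and 3 tylosin arrays (circle, square and triangle for replicates 1, 2 and 3), with the group mean and SD beside them. For Cyp2c54 the tylosin points, 9.39 to 10.57, lay below the control points, 10.67 to 11.74, while for Cyp3a16 and Cyp3a44 tylosin replicate 1 lay among the controls.

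Subfamily 2D, whose human counterpart CYP2D6 oxidises many drugs, had 5 members over the level. Cyp2d10 read 12.71, 12.79 and 12.98 in control, 12.73, 12.81 and 12.60 in amoxicillin and 12.55, 12.46 and 12.52 in tylosin arrays. Every tylosin array lay below every control and every amoxicillin array. The tylosin log2 fold change was -0.31 (SE 0.10, 95% interval -0.53 to -0.10, limma adjusted p = 0.23), below the size that the rule asks for, and the difference from amoxicillin had an adjusted p of 1.

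Cyp2d26, of the same subfamily, was the one member under an unadjusted p of 0.05 in both comparisons with control. It read 12.99, 13.07 and 13.21 in control, 12.82, 12.93 and 12.89 in amoxicillin and 12.96, 12.84 and 12.85 in tylosin arrays. Both antibiotic groups lay below control, by log2 fold changes of -0.21 for amoxicillin (limma adjusted p = 0.32) and -0.20 for tylosin (adjusted p = 0.33). Tylosin replicate 1 was close to control replicate 1, and the other arrays were farther apart.

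Cyp2d9, which is higher in male liver, had the largest SD of any member within the control group, 0.80, and within the tylosin group, 0.99. It read 7.06, 7.63 and 8.64 in control, 8.09, 7.59 and 7.26 in amoxicillin and 8.24, 8.08 and 6.44 in tylosin arrays. Its intervals, from -1.20 to 0.94 for amoxicillin and from -1.26 to 0.88 for tylosin, left room for changes in either direction. Cyp2d22 ranged from 9.25 in tylosin replicate 3 to 10.06 in tylosin replicate 1. Cyp2d13, listed in RefSeq as a transcribed pseudogene, read 8.48, 9.13 and 8.91 in control, 9.08, 9.07 and 9.13 in amoxicillin and 9.02, 9.36 and 8.72 in tylosin arrays. It gave an amoxicillin log2 fold change of 0.25 on its brightest probe set and -0.00 on the other. The median of the 5 was -0.19 with tylosin and turned to 0.27 without tylosin replicate 3, against 0.08 and 0.10 for all genes over the level.

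Cyp2e1, which oxidises ethanol and acetaminophen, was the brightest member and the least variable of those over the level. It read 13.92, 13.94 and 14.02 in control, 13.94, 13.99 and 13.94 in amoxicillin and 13.94, 13.96 and 13.88 in tylosin arrays. The groups overlapped, and the intervals of the log2 fold change ran from -0.18 to 0.17 for amoxicillin and from -0.21 to 0.14 for tylosin. These values are near the highest signal of any probe set on these arrays, 14.64 to 14.71, where arrays respond less to further RNA.

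Cyp2f2, which activates naphthalene and is most abundant near the portal vein in liver, read 12.33, 12.84 and 12.64 in control, 12.80, 12.42 and 12.40 in amoxicillin and 12.44, 12.40 and 11.97 in tylosin arrays. Only tylosin replicate 3 lay outside the control range, and the tylosin log2 fold change was -0.34 (95% interval -0.71 to 0.04). Cyp2a12, a steroid hydroxylase, read 12.39, 12.48 and 12.65 in control, 12.49, 12.35 and 12.46 in amoxicillin and 12.49, 12.22 and 12.43 in tylosin arrays, with overlapping groups. Subfamily 2J, whose enzymes epoxidise arachidonic acid, had probe sets that differed in their values. For Cyp2j5, abundant in liver and kidney, the brightest set gave an amoxicillin log2 fold change of 0.06. The dimmer one gave 0.36 (95% interval 0.05 to 0.67), under an unadjusted limma p of 0.05, with all amoxicillin arrays above control. For Cyp2j6 the brightest gave 0.01 with amoxicillin and 0.02 with tylosin. The other, of similar brightness (mean 7.17 against 7.21), gave 0.47 (95% interval -0.12 to 1.06) and 0.55 (95% interval -0.03 to 1.14). Its groups overlapped and both intervals included 0.

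Cyp2r1, the microsomal vitamin D 25-hydroxylase, had the most positive amoxicillin value of all members. It read 6.12, 6.50 and 5.70 in control, 6.84, 6.64 and 6.90 in amoxicillin and 6.82, 6.85 and 5.31 in tylosin arrays. All amoxicillin arrays lay above all controls, as did 2 of the 3 tylosin arrays, while tylosin replicate 3 lay below them. The log2 fold change was 0.69 with amoxicillin (SE 0.35, 95% interval -0.10 to 1.48, limma adjusted p = 0.39) and 0.22 with tylosin (95% interval -0.57 to 1.0). Without tylosin replicate 3 the values were 0.69 and 0.72, and both were called. Cyp2g1, best known from olfactory mucosa, read 6.69, 5.66 and 6.46 in control, 7.0, 6.99 and 6.44 in amoxicillin and 6.45, 6.20 and 6.00 in tylosin arrays. Its difference between tylosin and amoxicillin was -0.59 (95% interval -1.15 to -0.04, limma adjusted p = 1), with overlapping groups.

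**Figure D4:**
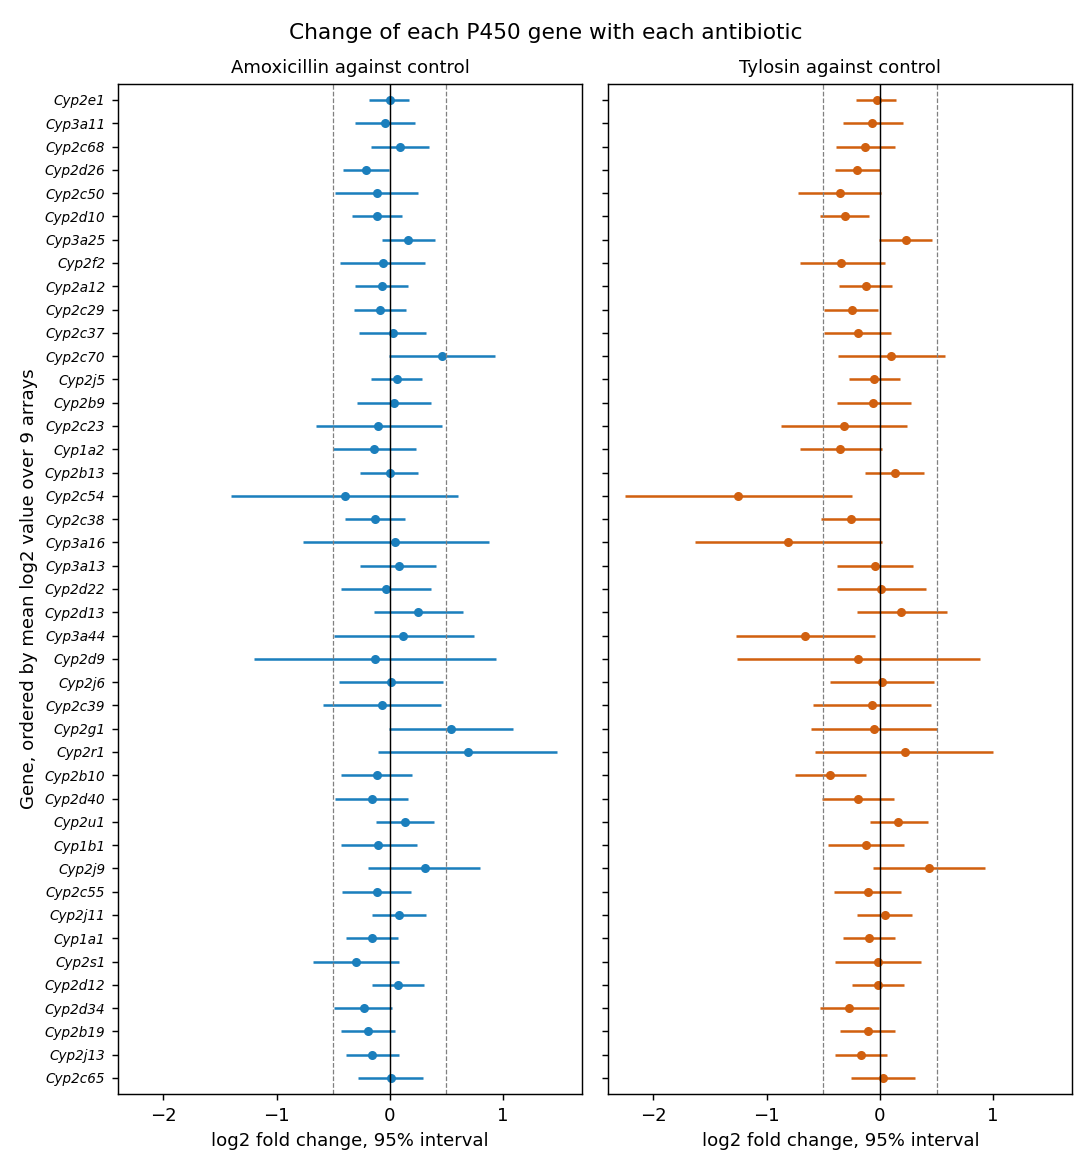
Log2 fold change of all 43 members against control (x axis) for amoxicillin and tylosin, ordered by mean log2 value. Bars are 95% intervals from limma, and dashed lines mark the size of 0.5 that a call asks for. The widest bars belong to Cyp2d9 and Cyp2c54, whose tylosin interval ran from -2.25 to -0.25.

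Family 3 clears a wide range of drugs, and macrolide antibiotics are known substrates and inhibitors of its human counterpart CYP3A4. Cyp3a11, the main PXR-inducible form, read 13.26, 13.56 and 13.63 in control, 13.27, 13.46 and 13.60 in amoxicillin and 13.38, 13.41 and 13.46 in tylosin arrays. The groups overlapped, with log2 fold changes of -0.04 (95% interval -0.31 to 0.22) and -0.07 (95% interval -0.33 to 0.20). Cyp3a25 read 12.22, 12.42 and 12.39 in control, 12.38, 12.54 and 12.61 in amoxicillin and 12.50, 12.72 and 12.49 in tylosin arrays. It was the one member whose tylosin arrays all lay above control, by 0.23 (95% interval -0.01 to 0.46, limma adjusted p = 0.34). The tylosin arrays all lay below control for Cyp2c29, Cyp2c50, Cyp2c54, Cyp2d10, Cyp2d26 and Cyp2d34. In Cyp2c50, tylosin replicate 2 equalled the lowest control at 2 decimals. The share of all genes that separated in either direction is not given here. Cyp3a13, prominent in the intestine, ranged from 9.92 to 10.56 with overlapping groups.

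The pair Cyp3a16 and Cyp3a44, both higher in female than in male adult liver and with nearly identical promoters, had the largest negative tylosin values after Cyp2c54. Cyp3a16 read 11.04, 10.22 and 10.20 in control, 10.12, 10.87 and 10.64 in amoxicillin and 10.63, 9.29 and 9.13 in tylosin arrays. Cyp3a44 read 8.51, 8.25 and 8.41 in control, 8.46, 8.75 and 8.32 in amoxicillin and 8.41, 7.79 and 7.0 in tylosin arrays. In both genes tylosin replicates 2 and 3 lay below all other arrays, and replicate 1 lay among the controls.

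For Cyp3a16 the log2 fold change was -0.81 against control (SE 0.37, limma adjusted p = 0.34) and -0.86 against amoxicillin (adjusted p = 1). For Cyp3a44 it was -0.66 against control (SE 0.28, limma adjusted p = 0.31) and -0.78 against amoxicillin (adjusted p = 1). Against control, leaving out 1 array at a time gave -1.28 without tylosin replicate 1 to -0.53 without control replicate 1 for Cyp3a16, and -1.0 without tylosin replicate 1 to -0.29 without tylosin replicate 3 for Cyp3a44. Without tylosin replicate 1 both were called lower against control and against amoxicillin. Close copies can share probes with such genes, so the array cannot say how much of each signal belongs to 1 gene.

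Of 9 members listed as higher in female liver, 4 were measured alone (Cyp2b9, Cyp2b13, Cyp3a16 and Cyp3a44). Their mean was 10.16 to 10.51 in control, 10.29 to 10.46 in amoxicillin and 10.50, 9.88 and 9.57 in tylosin replicates 1, 2 and 3. The median tylosin log2 fold change of these 4 was -0.36, against 0.08 for all genes over the level. Without tylosin replicate 3 these medians were -0.11 and 0.10. The median does not describe the 4 as a class: Cyp3a16 (-0.81) and Cyp3a44 (-0.66) were lower, while Cyp2b9 (-0.06) and Cyp2b13 (0.13) lay near 0. The joint probe sets gave -0.12 for Cyp3a41a and Cyp3a41b and 0.08 for Cyp2a4 and Cyp2a5. The list was written with earlier results of these data known, so its direction is no separate evidence. Of 7 genes listed as higher in male liver, Cyp2d9 among them, 5 were measured. Their mean was also lowest in tylosin replicate 3, 5.05 against 5.81 to 6.16 in the other arrays, and their median tylosin log2 fold change was -0.19. Elovl3 had by far the largest fall, -1.33, and read 4.65 in that array against 5.72 to 7.47 in the others. The rest ran from -0.22 (Cyp7b1) to -0.08 (Hsd3b5). Cyp2d9, Cyp7b1 and Hsd3b5 were also lowest in that array, and Cyp4a12a was not. Cyp4a12a and Hsd3b5 stayed below a log2 level of 6 in every array.

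By place in the lobule, 7 of 8 pericentral members were measured alone: Cyp1a2, Cyp2c29, Cyp2c37, Cyp2c50, Cyp2c54, Cyp2e1 and Cyp3a11. With amoxicillin 6 of the 7 were below 0, with a median of -0.09, and 4 were when each array was centred on its median. Of all genes over the level, 35.7% were below 0 with amoxicillin and 34% with tylosin. With tylosin all 7 were below 0, with a median of -0.25, though Cyp2e1 (-0.03) and Cyp3a11 (-0.07) lay close to 0. Without tylosin replicate 3 all 7 remained below 0, with a median of -0.15, against 0.10 for all genes over the level. When each array was centred on its median, 6 of 7 were below 0 with tylosin. Of these, 2 (Cyp2c29 and Cyp2c54) had an unadjusted limma p under 0.05 on the lower side, against 8.3% of all genes, and neither did without tylosin replicate 3 (log2 fold changes -0.15 and -0.91). The 7 pericentral genes that are not members had 0 calls and a median of 0.20. At an unadjusted limma p under 0.05, 3 of these 7 were higher with tylosin and 0 were lower, against 8.29% and 8.3% of all genes. The 3 were Oat (by 0.29), Slc1a2 (by 0.23) and Lgr5 (by 0.27), each with all tylosin arrays above control. Of the rest, Axin2 (-0.33), Gulo (-0.24) and Glul (-0.09) were below 0 with tylosin and Rhbg (0.20) was above. The periportal Cyp2f2 lay at -0.34. Of the 17 members listed as responsive to CAR or PXR, 13 were measured, with 0 called. Their median log2 fold change was -0.00 with amoxicillin and -0.19 with tylosin, where 4 of 13 were under an unadjusted limma p of 0.05, all lower, against 8.3% of all genes.

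The partners of these enzymes also had no call. Among 12 of 14 genes of electron transfer and haem metabolism that were measured, limma called 0 in either comparison with control, and at an unadjusted p under 0.05 it found 2 lower with amoxicillin (Alas1 and Blvrb, against 8.34% of all genes) and 1 lower with tylosin (Blvrb, against 8.3%). Blvrb, a biliverdin reductase, read 10.08, 10.24 and 10.11 in control, 9.80, 9.85 and 9.86 in amoxicillin and 9.77, 9.59 and 9.83 in tylosin arrays. Both antibiotic groups of Blvrb lay below control, by log2 fold changes of -0.31 (limma adjusted p = 0.24) and -0.41 (adjusted p = 0.18), under the size that a call asks for. Cyb5a, cytochrome b5, ranged from 13.05 to 13.22, and the reductase gene Por was not analysed here. Alas1, the rate-limiting enzyme of haem synthesis in liver, read 11.97, 11.43 and 12.27 in control, 11.56, 11.19 and 11.46 in amoxicillin and 11.60, 11.44 and 11.61 in tylosin arrays, with log2 fold changes of -0.48 (limma adjusted p = 0.29) and -0.34 (adjusted p = 0.41) and overlapping groups. Without control replicate 2 these were -0.71 and -0.57 and both were called, and without control replicate 3 they were -0.29 and -0.15.

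Of 18 sensors and regulators, 17 were measured and 0 were called. At an unadjusted limma p under 0.05, 3 were higher and 1 lower with amoxicillin, against 7.14% and 8.34% of all genes, and 3 were higher and 0 lower with tylosin, against 8.29% and 8.3%. Those higher with amoxicillin were the coactivator Ppargc1a (0.84), the repressor Bcl6 (0.54) and the glucocorticoid receptor Nr3c1 (0.38), and the fatty acid sensor Ppara was lower (-0.29). With tylosin they were Ppargc1a (0.90), Bcl6 (0.63) and Cebpb (0.53). Nr1i2, which encodes PXR, read 8.34, 7.89 and 7.99 in control, 8.28, 8.16 and 8.57 in amoxicillin and 8.32, 8.19 and 7.96 in tylosin arrays, overlapping throughout. Nr1i3, which encodes CAR, stayed between 9.15 and 9.59. Ahr read 9.61, 9.37 and 9.56 in control, 9.80, 9.74 and 9.81 in amoxicillin and 9.71, 10.01 and 9.46 in tylosin arrays. The amoxicillin arrays of Ahr lay above control, with a log2 fold change of 0.27 (limma adjusted p = 0.36).

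The other P450 families, whose 29 genes act mainly on sterols, bile acids and fatty acids, had 1 call with each antibiotic. Cyp4a31, of the fatty acid omega-hydroxylases, was called lower with amoxicillin (3.45%, against 0.445% of all genes). Cyp7a1, which starts the main route of bile acid synthesis, was called higher with tylosin (3.45%, against 1.01%). At an unadjusted limma p under 0.05 with tylosin, 5 of 29 were lower (17.2%), beside 7 of 43 (16.3%) in families 1 to 3 and 8.3% of all genes.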

How the data were processed

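Liver RNA of 9 mice, 3 per group, was hybridized to Affymetrix mouse expression arrays. Before deposit, RMA (affy package, per the labels) was applied to the arrays by the authors, and the deposited values are on the log2 scale. The versions used are not given in the sources. No 2 arrays were identical. The number of arrays limits the precision.

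Of the probe sets, 34945 carried 1 gene symbol, 932 several and 9160 none, 64 controls of the manufacturer were left out, and 45037 were tested. A single limma 3.58.1 fit (R 4.3.3) to all 9 arrays, without a filter, gave the comparisons between groups. Calls asked for P under 0.01 before adjustment with a log2 fold change of more than 0.5 either way. P-values were adjusted by Benjamini-Hochberg, and intervals are at 95%. The procedure was tested on simulated data. Normalization, filter, probe set, variance model, threshold, arrays fitted, replicate block and single arrays left out were varied. Promoters came from RefSeq tables (GRCm38.p6). Plots were made in Python 3.11.15 with matplotlib 3.10.9.

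The members and the gene lists were chosen with earlier results of these data known. By the rule for named genes, values in every array are given for the 10 brightest members and for the 5 largest rises and 5 largest falls with each antibiotic among members over a log2 level of 6 in at least 3 arrays. Cyp2c37 and Cyp2s1 fall outside this rule and were added after their values were seen.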

Additional observations from a re-analysis of the deposited data

How the results depend on the processing

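With 3 arrays a group, the absence of a call does not show that levels were alike, and the intervals above give the sizes left room for. Of the 6 counts of called members, each 0, all remained 0 under median centring, the filter on dim probe sets, both other choices of probe set, the variance model with trend and the adjusted threshold. With only the groups compared in the fit, 1 member was called higher with amoxicillin (Cyp2r1) and 1 lower with tylosin (Cyp2c54). Quantile normalization gave 1 lower with tylosin (Cyp2b10), and so did leaving out both arrays with intestinal transcripts, a setting chosen after seeing the data. Leaving out 1 array at a time gave 0 to 1 member called higher with amoxicillin, 0 to 1 higher with tylosin, 0 to 3 lower with tylosin (3 without tylosin replicate 1: Cyp1a2, Cyp3a16 and Cyp3a44; 1 each without control replicate 1 or amoxicillin replicate 3, Cyp2c54, and without control replicate 3 or tylosin replicate 2, Cyp2b10) and 0 to 2 lower in tylosin than in amoxicillin. Nqo1 (0.66 and 0.74) was not called at the adjusted threshold. The causes were not tested.

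With the replicate number as a block, 0 members were called in each comparison and direction. The numbers did not pair the arrays: 2 of 9 same-numbered pairs had correlated deviations over 0.1, and for 3 of 9 arrays the nearest array shared their number.

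Of 44 fold changes followed through the settings, these changed sign. Median centring gave 0.05 and 0.02 for Cyp2e1 with amoxicillin and tylosin, and 0.01 for Cyp3a11 with amoxicillin. Without both arrays with intestinal transcripts, Cyp2c70 gave -0.07 and Cyp2r1 -0.04 with tylosin, and Cyp2e1 0.01 and Cyp3a11 0.04 with amoxicillin. Leaving out 1 array at a time, the amoxicillin values ran from -0.22 to 0.03 for Cyp1a2, -0.23 to 0.07 for Cyp2c50, -0.73 to 0.14 for Cyp2c54, -0.49 to 0.30 for Cyp2d9, -0.02 to 0.03 for Cyp2e1, -0.20 to 0.05 for Cyp2f2 and -0.15 to 0.04 for Cyp3a11. The tylosin values ran from -0.21 to 0.00 for Cyp2c68, -0.07 to 0.32 for Cyp2c70, -0.04 to 0.72 for Cyp2r1 and -0.18 to 0.01 for Cyp3a11.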
